A study of Mus musculus with 22 samples.

Results

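The miR-34 and miR-449 family was followed in mouse round spermatids (RS), which are post-meiotic haploid germ cells, through 7 mature miRNAs: mmu-miR-34a-5p, mmu-miR-34b-5p, mmu-miR-34b-3p, mmu-miR-34c-5p, mmu-miR-34c-3p, mmu-miR-449a-5p and mmu-miR-449c-5p, written here without the species prefix. These were 7 of the 1966 mature names in the count table, picked by name as members of the family. Small RNA was sequenced from RS isolated from testes of mice aged 75 to 85 days, to ask how the RNA helicase GRTH/DDX25 bears on the miRNAs of these cells. The 22 libraries fell into 4 groups in 2 experimental batches. Batch 1 held 5 libraries of wild-type (WT) RS and 5 of GRTH knock-out (KO) RS, which lack the helicase. Batch 2 held 6 libraries of WT RS and 6 of GRTH knock-in (KI) RS, whose GRTH carries an amino acid change that leaves the mice without the phosphorylated form of the protein. Males of both mutant lines are sterile and their spermatids stop before they elongate, so the RS of a mutant testis need not hold the same mix of steps as those of a WT testis, and a gradient isolate can keep some other testis cells. The labels do not say whether the libraries of a group came from separate mice, so every p-value measures the spread between these libraries, which may in part be technical.

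A miRNA hairpin can release a mature strand from each of its arms, called 5p and 3p, and positions 2 to 8 of the mature strand, the seed, do most of the pairing with target mRNAs. Mir34b and Mir34c form 1 cluster, Mir449a, Mir449b and Mir449c another, and Mir34a stands alone. In the testis the miR-34b/c and miR-449 clusters are known to switch on in meiotic and post-meiotic germ cells, and mice that lack both clusters make few and defective sperm, whereas miR-34a is best known as a target of the tumour suppressor p53 in many tissues. The strands with the same seed are thought to share most of their targets.

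The mature sequences are given 5′ to 3′ because the family is defined by its seed, which is in capitals. Of the 7 members, 6 had a mature sequence in the RefSeq table for GRCm38.p6. The member without one was miR-34c-5p, so its bases are not printed and its seed was not compared.
miR-34a-5p: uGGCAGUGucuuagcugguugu
miR-34b-5p: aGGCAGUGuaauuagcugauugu
miR-449a-5p: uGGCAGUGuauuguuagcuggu
miR-449c-5p: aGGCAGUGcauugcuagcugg
miR-34b-3p: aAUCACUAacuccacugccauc
miR-34c-3p: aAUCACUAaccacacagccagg
The 4 5p strands printed share the seed GGCAGUG, and the 2 3p strands share a different one, AUCACUA. No other mouse miRNA among the 1679 with a sequence in that table carried either seed. Of the 1966 names in the count table, 1675 had a sequence there. The rest could not be searched, so further counted names may carry either seed. Counted without gaps from the 5′ end, seed included, over the bases both strands have, miR-449a-5p and miR-449c-5p were the same at 18 of 21 positions, miR-34a-5p and miR-449a-5p at 15 of 22, miR-34b-3p and miR-34c-3p at 17 of 22, and miR-34b-5p and miR-449a-5p at 10 of 22. Each member had 1 locus in the deposited annotation. How reads that match more than 1 of these strands were shared out was not tested.

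On GRCm38, miR-34a-5p lies at chr4:150068473-150068494 on the plus strand, where the GENCODE annotation has no gene but the miRNA's own. Mir34b and Mir34c lie 451 bases apart on the minus strand of chromosome 9, in an intron of Btg4, a gene on the opposite strand. Their products are miR-34b-5p at chr9:51103610-51103632, miR-34b-3p at chr9:51103574-51103595, miR-34c-5p at chr9:51103076-51103098 and miR-34c-3p at chr9:51103044-51103065. Mir449c and Mir449a lie 1442 bases apart on the plus strand of chromosome 13, in an intron of Cdc20b on the same strand, with miR-449c-5p at chr13:113036008-113036028 and miR-449a-5p at chr13:113037549-113037570.

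The libraries held between 559957 and 3239357 counts, fewer in batch 1 (559957 to 881323 in KO, 870913 to 1081333 in WT) than in batch 2 (2067322 to 3239357 in WT, 2107461 to 3101145 in KI). A miRNA with 3 counts would stand at 0.926 to 5.36 CPM, the count relative to the sum of its library, a floor that covers counting error only. The weakest member, miR-449c-5p, had 157 to 724 counts in a library, so counting error was small beside the spread between libraries. Where CPM are given for a group, they were scaled within its own batch by TMM, a method that sets the typical miRNA of 2 libraries equal, and levels of KO and KI libraries are therefore not compared with each other: genotype and batch cannot be told apart there.

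The family made up a large part of the miRNA counts of RS in all 4 groups. In batch 1 the 7 members together took 24.9% ± 1.21 of all WT counts and 23.7% ± 1.25 of all KO counts (SD, n = 5 each). In batch 2 the shares were 33.7% ± 0.747 for WT and 33.3% ± 1.14 for KI (SD, n = 6 each). The ranges of mutant and WT libraries overlapped in both batches, 22.1% to 25.8% over all of batch 1 and 32.0% to 34.9% over all of batch 2, and since the members were chosen together the sum was not tested. These shares depend on how reads with several genomic matches were counted in other miRNAs, as given with the limits.

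**Figure D1:**
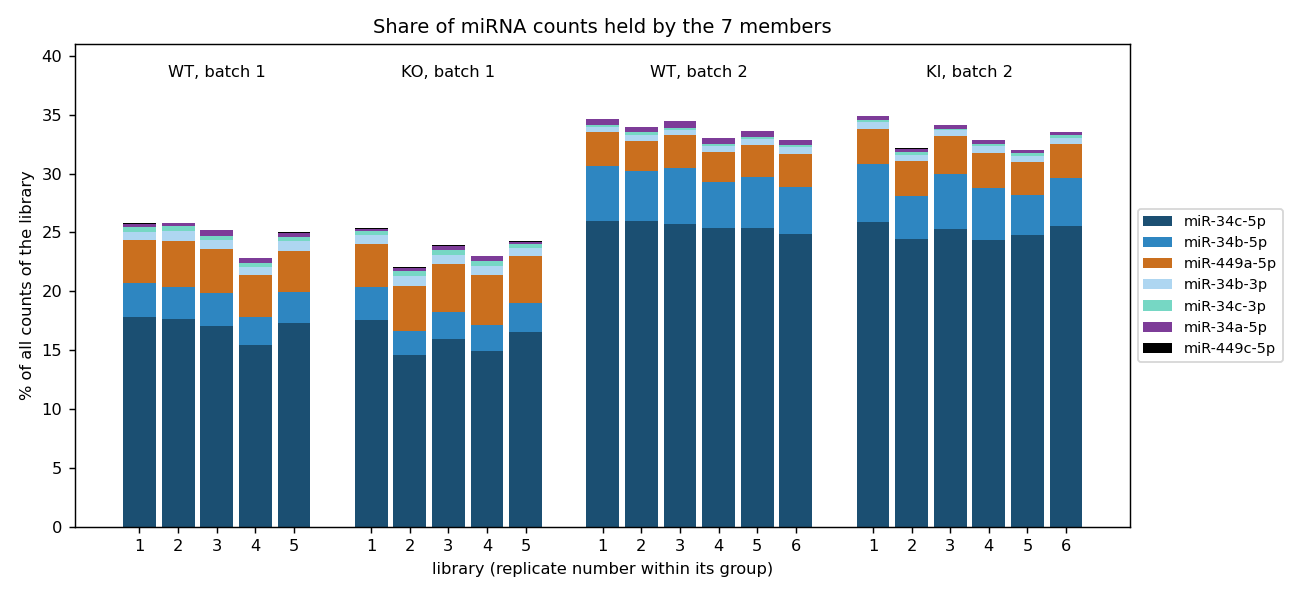
Percent of all miRNA counts of a library (vertical axis) held by each of the 7 members (colours, stacked), for each of the 22 libraries (horizontal axis, by group and replicate number). miR-34c-5p fills most of each bar, and the bars of batch 2 reach 32.0% to 34.9% against 22.1% to 25.8% in batch 1.

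miR-34c-5p carried most of the family. As counted, it was the second most abundant miRNA name in both batches, behind miR-16-5p, which has 2 loci, at a share of 17.1% ± 0.938 (SD, n = 5) for WT of batch 1 and 25.5% ± 0.428 (SD, n = 6) for WT of batch 2. With counts divided by the number of loci, a setting for ranks added after the data were seen, it stood first in both batches, at a mean of 22.3% over the libraries of batch 1 and 32.9% over those of batch 2, and miR-16-5p second at 21.05% and 19.5%. The mature strands are all 21 to 23 bases long, so counts were compared between members without a correction for length, although adapter ligation favours some strands over others. Below it stood miR-449a-5p and miR-34b-5p, and their order turned between the batches. In WT of batch 1 miR-449a-5p held 3.67% ± 0.155 and miR-34b-5p 2.67% ± 0.200 (SD, n = 5), whereas in WT of batch 2 miR-34b-5p held 4.31% ± 0.345 and miR-449a-5p 2.74% ± 0.127 (SD, n = 6). In each case the libraries of the group did not overlap between the 2 miRNAs.

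The remaining 4 members each held less than 1% of the counts. miR-34b-3p stood at 0.770% ± 0.0580 in WT of batch 1 and 0.484% ± 0.0399 in WT of batch 2, and miR-34c-3p at 0.366% ± 0.0448 and 0.186% ± 0.0215. miR-34a-5p held 0.357% ± 0.110 and 0.478% ± 0.0740 in the same groups, so that it could not be separated from miR-34c-3p in batch 1 or from miR-34b-3p in batch 2 beyond the spread between libraries. miR-449c-5p, from the same intron as miR-449a-5p, was far lower, at 0.0233% ± 0.00439 and 0.0192% ± 0.00461. By mean share as counted it ranked 129th in batch 1 and 146th in batch 2 among all names.

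KO RS were compared with WT RS in batch 1 by edgeR's quasi-likelihood test across the 334 miRNAs that passed a filter on low counts, which all 7 members did, with Benjamini-Hochberg adjusted p under 0.1 as the threshold. Of the 7 members 3 were called, 1 higher and 2 lower, in a comparison in which 41.9% of all tested miRNAs were called (21.3% higher and 20.7% lower). The median log2 fold change of the 7 members was -0.11, beside 0.01 over all tested miRNAs. No member separated KO from WT libraries without overlap, which 20.1% of the tested miRNAs did. With counts scaled by library size alone, 69.7% of all called miRNAs were higher instead of 50.7%, and the median of all tested miRNAs rose from 0.01 to 0.13. The size of small differences below thus depends on the scaling. The signs of miR-34b-3p, miR-34c-3p and miR-449a-5p turned with it, and those of miR-34a-5p, miR-34b-5p, miR-34c-5p and miR-449c-5p did not.

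miR-449c-5p was the member that rose in KO. In WT libraries 1 to 5 it stood at 182, 252, 212, 258 and 309 CPM, and in KO libraries 1 to 5 at 284, 344, 575, 493 and 450 CPM. Only the lowest KO library fell within the WT range, and the other 4 lay above every WT library. The means were 242 ± 48.5 CPM in WT and 429 ± 116 CPM in KO (SD, n = 5 each), a log2 fold change of 0.82 (SE 0.19, adjusted p = 0.00889 by edgeR). The call held in 10 of 10 fits that each left out 1 library, with log2 fold changes from 0.69 to 0.93. The strand that shares its host intron and seed, miR-449a-5p, had 38214 ± 2523 CPM in WT and 38090 ± 2378 CPM in KO (SD, n = 5 each). Its log2 difference of 0.00 had a 95% interval from -0.14 to 0.13, which bounds any change at this depth but does not show that there was none, and with library-size scaling the difference was 0.11 and passed (adjusted p = 0.0983).

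The 5p strands of the miR-34b/c cluster were slightly lower in KO. miR-34c-5p, the leading strand, stood at 179918, 191477, 177198, 156651 and 182584 CPM in WT libraries 1 to 5 and at 179160, 133538, 145497, 141916 and 169871 CPM in KO libraries 1 to 5. KO libraries 2, 3 and 4 lay below every WT library, and KO libraries 1 and 5 lay inside the WT range. The log2 fold change was -0.21 (SE 0.08, adjusted p = 0.0809 by edgeR), from a mean of 177566 ± 12862 CPM to 153996 ± 19506 CPM (SD, n = 5 each). miR-34b-5p stood at 28832, 29702, 29045, 23848 and 27456 CPM in WT and at 28507, 18829, 21418, 20970 and 25107 CPM in KO. Here too KO libraries 1 and 5 lay inside the WT range and the other 3 below it, and the log2 fold change was -0.27 (SE 0.11, adjusted p = 0.0643 by edgeR).

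Both calls lay near the threshold and were lost in many fits that left out 1 library, and with library-size scaling. The call of miR-34c-5p was lost in 7 of 10 fits that left out 1 library (WT library 1, 2, 3 or 5 or KO library 2, 3 or 4), with log2 fold changes down to -0.16 and adjusted p up to 0.157, and that of miR-34b-5p in 6 of 10 (WT library 1, 2 or 3 or KO library 2, 3 or 4), down to -0.21 with adjusted p up to 0.139. DESeq2 called neither (adjusted p = 0.168 for miR-34c-5p and 0.113 for miR-34b-5p), and scaling by library size alone gave -0.10 and -0.17 with no call. RLE scaling ended the call of miR-34c-5p as well (-0.18, adjusted p = 0.125 by edgeR) and kept that of miR-34b-5p.

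The 3p strands of the cluster and miR-34a-5p did not pass the test in KO. miR-34b-3p was at 8024 ± 825 CPM in WT and 7445 ± 378 CPM in KO (SD, n = 5 each; log2 difference -0.11, SE 0.08, adjusted p = 0.276 by edgeR). miR-34c-3p was at 3815 ± 570 CPM in WT and 3626 ± 339 CPM in KO (log2 difference -0.07, SE 0.10, adjusted p = 0.605 by edgeR). Both differences turned positive with library-size scaling, to 0.01 and 0.05. miR-34a-5p stood at 3097, 2465, 5309, 4239 and 3399 CPM in WT libraries 1 to 5 and at 1771, 2484, 2911, 4019 and 2185 CPM in KO libraries 1 to 5. Relative to the mean its libraries spread more widely in both groups than those of any other member, and the groups overlapped over most of their range. The log2 difference was -0.47 (SE 0.23, 95% interval from -0.97 to 0.03, adjusted p = 0.130 by edgeR). The test passed with no filter on low counts (adjusted p = 0.00234) and without WT library 2 (-0.59, adjusted p = 0.0670) or KO library 4 (-0.67, adjusted p = 0.0417).

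**Figure D2:**
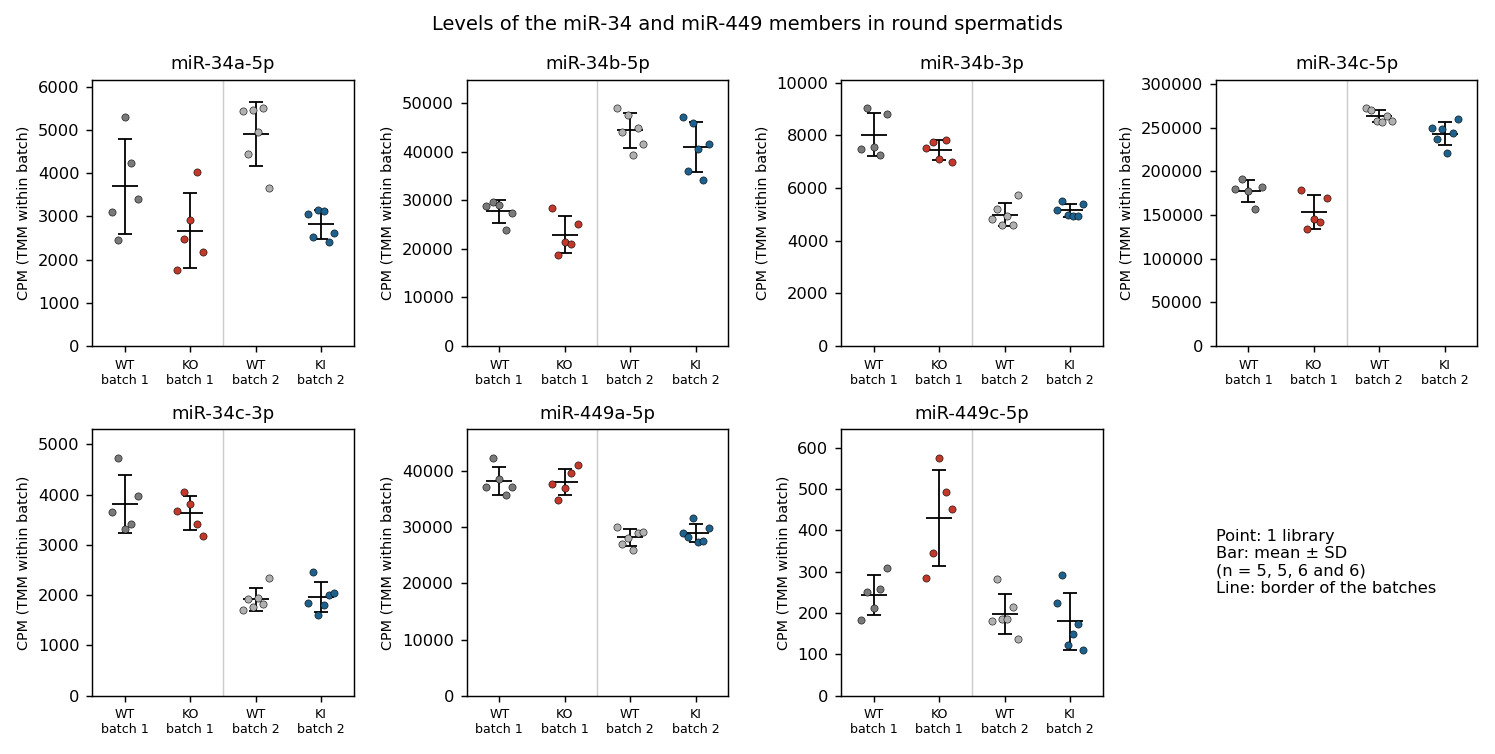
CPM scaled within a batch (vertical axes, linear, from 0) of the 7 members in the 4 groups (horizontal axes), 1 panel for each member, with a point for each library and a bar for mean ± SD (n = 5, 5, 6 and 6). miR-34a-5p in KI (2419 to 3144 CPM) lies below every WT library of its batch (3667 to 5507 CPM), and miR-449c-5p in KO (284 to 575 CPM) lies mostly above WT (182 to 309 CPM).

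KI RS were compared with WT RS in batch 2 in the same way, across 387 miRNAs. Of the 7 members 2 were called, both lower, in a comparison in which 38% of all tested miRNAs were called (18.1% higher and 19.9% lower). The median log2 fold change of the members was -0.11, beside 0.00 over all tested miRNAs. With library-size scaling 64.4% of all called miRNAs were higher instead of 47.6%. One member, miR-34a-5p, separated the groups without overlap, which 14.5% of the tested miRNAs did (9.04% with the mutant lower).

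miR-34a-5p fell in KI. Its lowest, median and highest libraries stood at 3667, 5198 and 5507 CPM in WT and at 2419, 2835 and 3144 CPM in KI. All 6 KI libraries lay below all 6 WT libraries, and the mean went from 4916 ± 737 CPM to 2816 ± 332 CPM (SD, n = 6 each), or 57.3% of the WT mean. The log2 fold change was -0.80 (SE 0.10, 95% interval from -1.03 to -0.58, adjusted p = 7.31e-05 by edgeR). It passed under all 6 other settings and in 12 of 12 fits that left out 1 library, where it ranged from -0.86 to -0.75.

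miR-34c-5p was also lower in KI, by a small amount. The lowest, median and highest libraries stood at 256599, 260760 and 272316 CPM in WT and at 221539, 246272 and 259697 CPM in KI. KI libraries 1 to 5 lay below every WT library, and KI library 6 lay within the WT range. The log2 fold change was -0.11 (SE 0.04, adjusted p = 0.0271 by edgeR), with means of 263090 ± 6943 CPM and 243344 ± 13087 CPM (SD, n = 6 each). Leaving out WT library 2, KI library 1 or KI library 5 ended the call (-0.09, -0.08 and -0.10, adjusted p = 0.126, 0.209 and 0.109 by edgeR), as did library-size scaling (-0.03, adjusted p = 0.306) and the fit with no filter on low counts (adjusted p = 0.202).

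The other 5 members did not pass the test in KI. miR-34b-5p, from the same cluster, had a log2 difference of -0.12 (SE 0.08, adjusted p = 0.271 by edgeR), with libraries from 39442 to 48980 CPM in WT and from 34269 to 47169 CPM in KI. miR-34b-3p and miR-34c-3p differed by 0.05 (SE 0.06) and 0.04 (SE 0.10), and miR-449a-5p by 0.04 (SE 0.05), with a 95% interval from -0.06 to 0.14. Library-size scaling added calls for miR-34b-3p (0.13, adjusted p = 0.0910) and miR-449a-5p (0.12, adjusted p = 0.0348), both higher. miR-449c-5p, which rose in KO, stood at 136 to 282 CPM in WT and 112 to 293 CPM in KI, with a log2 difference of -0.14 (SE 0.23, 95% interval from -0.62 to 0.35, adjusted p = 0.664 by edgeR).

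**Figure D3:**
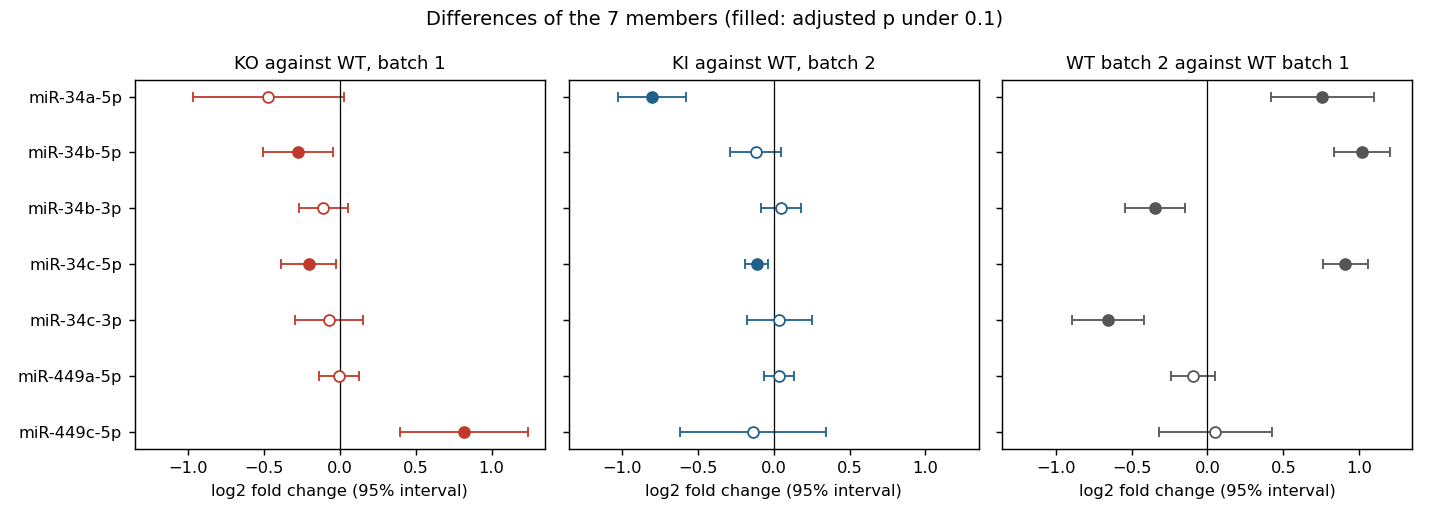
Log2 fold change (horizontal axes) of each member (vertical axis) for KO against WT, KI against WT and WT of batch 2 against WT of batch 1, with 95% intervals from edgeR; filled points passed adjusted p under 0.1. miR-34a-5p in KI (-0.80) and miR-449c-5p in KO (0.82) lie farthest from 0 among the mutant comparisons, and the third panel reaches 1.02.

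Whether the KO and KI differences were themselves unequal was tested as the difference of the 2 log2 fold changes over all 4 groups and 421 miRNAs. KO and KI were in separate batches, so unequal effects of genotype and of batch cannot be told apart here. Of the 7 members 0 were called and 0% of all tested miRNAs were, while 15.9% had an unadjusted p under 0.05 in edgeR. For miR-449c-5p the KO value exceeded the KI value by 0.95 (SE 0.32, 95% interval from 0.29 to 1.61, unadjusted p = 0.00688, adjusted p = 0.202 by edgeR). DESeq2 gave 0.91 with an adjusted p of 0.0975, 1 of 21 miRNAs it called, and leaving out KI library 2 gave 1.13 with an adjusted p of 0.0621. For miR-34a-5p the difference was 0.32 (SE 0.25, adjusted p = 0.548 by edgeR), so its call in KI alone does not set the mutants apart. For the other 5 members the difference lay between -0.16 and -0.05, with adjusted p from 0.507 to 0.815.

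Ratios of 2 products within a library need no scaling, and 7 such ratios were compared between mutant and WT in each batch by two-sided exact permutation tests, adjusted over the 14 tests. The arm ratios of miR-34c and miR-34b did not pass. miR-34c-5p had 46.8 counts for each count of miR-34c-3p in WT and 42.3 in KO of batch 1 (geometric means, n = 5 each, exact p = 0.325, adjusted p = 0.506), and 138 in WT and 125 in KI of batch 2 (n = 6 each, exact p = 0.249, adjusted p = 0.436). For miR-34b the 5p to 3p ratio was 3.47 in WT and 3.05 in KO (exact p = 0.214, adjusted p = 0.429), and 8.92 in WT and 7.89 in KI (exact p = 0.167, adjusted p = 0.389). All 4 were lower in the mutant, by 0.15 to 0.18 on the log2 scale, and all 4 overlapped.

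Of the 14 ratios 3 passed: miR-34a-5p and miR-449a-5p, each relative to miR-34c-5p, in KI, and miR-449c-5p relative to miR-449a-5p in KO. miR-34a-5p relative to miR-34c-5p went from 0.0185 in WT (0.01420 to 0.0213) to 0.0115 in KI (0.00992 to 0.01417), a log2 difference of -0.68 (n = 6 each, exact p = 0.00216, adjusted p = 0.0152), and the groups did not overlap. miR-449a-5p relative to miR-34c-5p went from 0.107 in WT (0.0996 to 0.1129) to 0.119 in KI (0.1133 to 0.128), a log2 difference of 0.15 (n = 6 each, exact p = 0.00216, adjusted p = 0.0152), again with no overlap. The smallest p that 6 against 6 libraries allow is 0.00216. The products of Mir34a, Mir34c and Mir449a thus stood in other proportions in KI than in WT.

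In KO the ratio of miR-449a-5p to miR-34c-5p was 0.215 in WT and 0.249 in KO, a log2 difference of 0.21 that missed the threshold after adjustment (n = 5 each, exact p = 0.0317, adjusted p = 0.111) and passed without KO library 1 (0.27, adjusted p = 0.0278). Within the Cdc20b intron, miR-449c-5p relative to miR-449a-5p went from 0.00627 in WT (0.00493 to 0.00832) to 0.0110 in KO (0.00755 to 0.0155), a log2 difference of 0.81 (n = 5 each, exact p = 0.0159, adjusted p = 0.0741). This call was lost in 8 of 10 comparisons that left out 1 library (any but WT library 5 or KO library 1), where the adjusted p reached 0.148 and the difference stayed between 0.68 and 0.94. In KI the same ratio was 0.00587 against 0.00685 in WT (n = 6 each, exact p = 0.439, adjusted p = 0.615). miR-34b-5p relative to miR-34c-5p, 2 strands of 1 cluster, passed in neither mutant (adjusted p = 0.222 in KO and 0.894 in KI), nor did miR-34b-3p relative to miR-34c-3p (0.722 and 0.830).

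**Figure D4:**
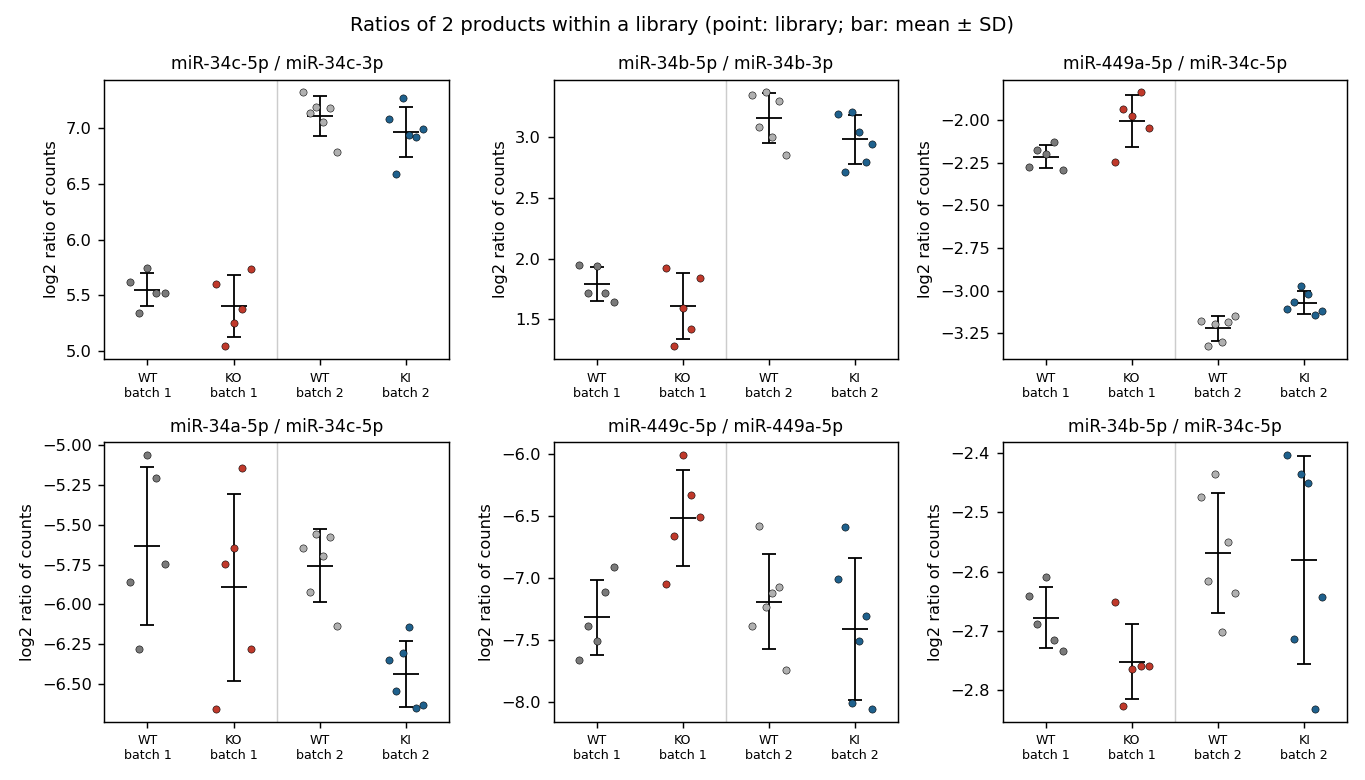
Log2 ratio of the counts of 2 products in the same library (vertical axes, each with its own range) for 6 pairs in the 4 groups (horizontal axes), with a point for each library and a bar for mean ± SD (n = 5, 5, 6 and 6). The 5p to 3p ratios of miR-34c and miR-34b separate the batches (46.8 and 138, and 3.47 and 8.92, in WT), while mutant and WT overlap.

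The members also differed between the 2 sets of WT libraries. With the WT libraries of both batches scaled together, 5 of the 7 members were called between batches, in a comparison in which 56.7% of 383 miRNAs were called (26.9% higher and 29.8% lower in batch 2). The 5p strands of the miR-34 hairpins were higher in batch 2: miR-34b-5p by 1.02 on the log2 scale (SE 0.09, adjusted p = 1.60e-07 by edgeR), miR-34c-5p by 0.91 (SE 0.07, adjusted p = 5.83e-08) and miR-34a-5p by 0.76 (SE 0.16, adjusted p = 0.000907). The 3p strands of the same cluster were lower, with log2 fold changes of -0.66 (SE 0.11, adjusted p = 0.000165 by edgeR) for miR-34c-3p and -0.35 (SE 0.09, adjusted p = 0.00480) for miR-34b-3p. miR-449a-5p (-0.10, SE 0.07) and miR-449c-5p (0.05, SE 0.17) were not called. miR-34b-5p, miR-34c-5p and miR-34c-3p had no overlap between the batches, against 36.6% of all tested miRNAs. Library-size scaling moved the median of all miRNAs to -0.34 from -0.01 and left 19.6% of calls higher instead of 47.5%, with miR-449a-5p then called lower (-0.42).

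The arm balance of the miR-34b/c cluster was not the same in both sets of WT libraries. The 5p to 3p ratio of miR-34c was 40.5 to 53.5 in WT of batch 1 and 111 to 160 in WT of batch 2, and that of miR-34b 3.12 to 3.86 and 7.24 to 10.3, with no overlap (exact permutation p = 0.00216 each, adjusted p = 0.00433 over 8 ratios; n = 5 and 6; this comparison was added after the data were seen). For miR-449a the 5p to 3p ratio was 3113 and 2785 (exact permutation p = 0.463, adjusted p = 0.589), though its 3p strand had as few as 8 counts in a library. The labels give no more than a batch name, so what differed in handling was not tested, and genotype effects were read within a batch only.

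The other strands of the members' hairpins were close to absent, and so was miR-449b, which comes from a separate hairpin of the miR-449 cluster, Mir449b. Over all 22 libraries miR-34a-3p had 118 counts, miR-449b 66, miR-449c-3p 105 and miR-449a-3p 506. Of the 4, the filter kept miR-449a-3p, at 12.1 ± 3.36 CPM in WT and 18.2 ± 6.09 CPM in KO (SD, n = 5 each; log2 difference 0.57, SE 0.27, adjusted p = 0.125 by edgeR), and at 10.2 ± 2.39 CPM in WT and 14.7 ± 3.51 CPM in KI (SD, n = 6 each). In KI it was called higher, with a log2 fold change of 0.52 (SE 0.20, adjusted p = 0.0619 by edgeR), and the groups overlapped. The ratio of miR-449a-5p to its 3p strand was 2785 in WT and 1985 in KI (n = 6 each, exact p = 0.0238, adjusted p = 0.0476 over the 2 mutants) and 3113 in WT and 2089 in KO (n = 5 each, exact p = 0.0556, adjusted p = 0.0556), a comparison added after the data were seen. Both passed the threshold of 0.1, but the groups overlapped and the 3p strand had only 8 to 56 counts in a library.

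A list of other germ cell and testis miRNAs and marker lists of other cells were read beside the family. Like the members, the lists were chosen with earlier results of these data known. Of 18 other germ cell and testis miRNAs (miR-184-3p and the X-linked miR-465, miR-741 and miR-880 groups among them), 14 were called lower and 0 higher in KO, where 20.7% of all tested miRNAs were called lower, and 13 lower and 0 higher in KI, where 19.9% were. The list had median log2 fold changes of -0.33 and -0.34 beside 0.01 and 0.00 over all miRNAs. Their summed level ran from 51855 to 58176 CPM of the library total in WT and from 40442 to 50375 in KO of batch 1, and from 37198 to 38649 in WT and 30246 to 34099 in KI of batch 2. Of 6 markers of blood and immune cells tested, 3 were called higher and 0 lower in KO, where 21.3% of all tested miRNAs were called higher, and 5 higher and 0 lower in KI, where 18.1% were, at sums of 4721 to 5839 and 5482 to 7460 CPM in batch 1 and 2660 to 3279 and 3481 to 5397 CPM in batch 2. Of the markers of vessels, smooth muscle and stroma, 5 of 6 tested were called higher in KO and 4 of 7 in KI, with 0 lower in either, at sums of 844 to 2468 and 2247 to 5222 CPM and of 1481 to 2564 and 2098 to 4906 CPM. Of the 3 spermatogonial markers in the table, 2 were tested, and 1 of these rose in KO and 0 in KI, at sums of 2321 to 2695 CPM in WT and 1969 to 2964 CPM in KO, and 5207 to 5785 CPM in WT and 5383 to 6956 CPM in KI. miR-144-3p, a red cell miRNA, was at 0 in every library of 3 groups and above 0 in at least 1 KO library. Its KO counts are not given, so it is not read as a difference of KO. In such isolates fewer cells of a type and less of a miRNA per cell cannot be told apart, and the part of these shifts in the results on miR-34a-5p, miR-34c-5p and miR-449c-5p was not tested.

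To find miRNAs with a like course, each name with a mean of at least 10 CPM was compared with 3 members over the 22 libraries, by the root mean square distance of log2(CPM + 1) after the WT mean of the batch was subtracted. These distances describe libraries that share their batch and their scaling, and were not tested. A name with no deviation from the WT mean would lie 0.176 from miR-34c-5p, 0.0876 from miR-449a-5p and 0.569 from miR-34a-5p. A distance near or above these values shows no shared course. Nearest to miR-34c-5p among 323 names stood miR-16-5p (0.0770 log2 units), miR-9-5p (0.0889) and miR-25-3p (0.0974), where the median name was 0.356 away. Its nearest relative in the family was miR-34b-5p (0.109, place 6 of 329 with the members counted), whereas miR-34c-3p, from its own hairpin, was 0.217 away (place 78). Nearest to miR-449a-5p were miR-20a-5p (0.0580), miR-30e-5p (0.0744) and let-7g-5p (0.0769), all with mean deviations in KO and KI between -0.07 and 0.12. Nearest to miR-34a-5p were miR-203-3p (0.214), miR-202-5p (0.254) and miR-202-3p (0.267), the last 2 being both arms of 1 hairpin. Their mean deviations from WT were -0.21, -0.75 and -0.47 in KO and -0.57, -0.69 and -0.72 in KI. They were picked for nearness over these same libraries, so a direction shared with miR-34a-5p follows in part from the choice. The KO difference of miR-34a-5p itself was not called. The closest member, miR-34b-5p, was 0.507 from miR-34a-5p (place 88 of 329).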

How the data were processed

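Small RNA libraries of RS (22 libraries, 4 groups) were analysed from the table of counts that the authors deposited, unnormalized reads for each mature name. Per the labels and the study's methods, the authors trimmed adapters (cutadapt 3.4), aligned to GRCm38 (Bowtie2 2.4.2, local mode, many alignments reported per read) and counted with featureCounts (Subread 2.0.1) by strand. Reads of names with several loci may have been counted more than once, which changes library totals. All 7 members have 1 locus.

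The members, lists and tests were chosen with earlier results of these data known. Comparisons used edgeR 4.0.16 (R 4.3.3; TMM, filterByExpr, quasi-likelihood test, genotype as the only term, KO and KI each with the WT of their batch, adjusted p under 0.1 over all miRNAs tested); SE was the log2 fold change over the square root of F. Ratios used log2 of counts plus 0.5 and two-sided exact permutation tests, with all permutations enumerated directly and scipy 1.17.1 used only as a check. The settings tried in turn were library size only, RLE, scaling without the members, no filter, DESeq2 1.42.0, a replicate block, and leaving out each library. Scripts were tested on simulated data. Named miRNAs were the 7 members, the other strands of their clusters' hairpins, the 3 names nearest to each of 3 members, and examples from the fixed marker lists; miR-144-3p and miR-16-5p were singled out after their values were seen. The study's methods place the KI batch first, whereas the labels' order was followed here. The mRNA of GRTH itself was not analysed here. All columns of per-sample values were used.

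Same-numbered mutant and WT libraries deviated from their group means with correlations from -0.21 to 0.31 in batch 1 and -0.12 to 0.56 in batch 2, so the numbers were not taken to pair the samples.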

Additional observations from a re-analysis of the deposited data

How the results depend on the processing

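Of 546 refits of the log2 differences between groups, 493 kept their sign and their side of the threshold, as did 177 of 196 for the 14 ratios. Values that changed sign, all uncalled before, were in KO miR-34b-3p (0.0077), miR-34c-3p (0.047) and miR-449a-5p (0.11) with library size only and miR-449a-5p with RLE (0.016), and between WT batches miR-449a-5p with no filter (0.0012) and miR-449c-5p with library size only (-0.28). The cause was not tested.

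Members called in KO fell from 3 to 1 with DESeq2 and ranged from 1 to 3 when 1 library was left out, and in KI they fell from 2 to 1 with no filter and ranged from 1 to 2. For the difference between KO and KI, DESeq2 called 21 miRNAs and 1 member, and leaving out 1 library gave 0 to 26 miRNAs and 0 to 1 member, the 26 without KI library 2. Left-out libraries gave ranges crossing 0 in KO for miR-34c-3p (-0.12 to 0.013) and miR-449a-5p (-0.039 to 0.031), in KI for miR-34c-3p (-0.039 to 0.11) and miR-449c-5p (-0.33 to 0.013), between WT batches for miR-449c-5p (-0.14 to 0.19), for KO less KI in miR-449a-5p (-0.19 to 0.0041), and in KI for the ratios miR-34b-5p to miR-34c-5p (-0.046 to 0.039) and miR-34b-3p to miR-34c-3p (-0.024 to 0.069). The KO ratios ranged from -0.099 to -0.056 for miR-34b-5p to miR-34c-5p, 0.16 to 0.27 for miR-449a-5p to miR-34c-5p and 0.68 to 0.94 for miR-449c-5p to miR-449a-5p.

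With the replicate block, which is a hint at most because only 1 of 5 KO and 3 of 6 KI libraries correlated best with their own number, miR-34a-5p passed in KO (-0.48, adjusted p = 0.0364) and miR-34b-5p in KI (-0.12, adjusted p = 0.0918), and 25 miRNAs and 1 member (miR-449c-5p, 0.98, adjusted p = 0.0329) were called for KO less KI. The blocked ratios (0.81 in KO, -0.68 and 0.15 in KI) all had adjusted p = 0.175, in a sign-flip test whose smallest p is 0.0625 for 5 pairs and 0.0313 for 6, too coarse for a few ratios to pass over 14 tests. No other call of a member changed with the block.

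Dividing counts by the number of loci gave family shares of 33.7% (WT) and 31.9% (KO) in batch 1 and 43.9% (WT) and 43.2% (KI) in batch 2, and leaving miR-16-5p out of the totals gave 36.5%, 34.2%, 48.3% and 47.4%. Depth limits the other strands most, at 0 to 56 counts a library.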
